A study of Homo sapiens with 3 samples.

Results

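The EphB receptors and their ephrin-B ligands were followed in HCT-116 cells, a human colon carcinoma line, with and without siRNA against *APC*. The 8 genes, *EPHB1*, *EPHB2*, *EPHB3*, *EPHB4*, *EPHB6*, *EFNB1*, *EFNB2* and *EFNB3*, were chosen by name from the 23131 rows of the deposited expression table, and their levels in both libraries were known when they were chosen. HCT-116 carries intact *APC* and a *CTNNB1* allele whose β-catenin resists degradation. The series holds 3 total RNA libraries of this single line. One received a pool of siRNA targeting *APC*, one a pool of scrambled siRNA, and one is titled untransfected, although its treatment labels describe a mock transfection with reagent and no siRNA. Cells were transfected on 2 consecutive days and harvested 48 hours after the second transfection. The table lists expression for the untransfected control and for cells given anti-APC siRNA. The scrambled library was not analysed here.

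Eph receptors are receptor tyrosine kinases, and ephrin-B ligands are transmembrane proteins on neighbouring cells, so that contact between cells carries a signal into both of them. The signal into the receptor-bearing cell is called forward and the signal into the ligand-bearing cell reverse. In the intestine, EphB2 and EphB3 are found towards the crypt base and ephrin-B1 and ephrin-B2 towards the lumen, and the repulsion between them keeps cell populations sorted along the crypt axis. *EPHB2* and *EPHB3* are known as target genes of β-catenin and TCF in this tissue.

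Levels are FPKM, fragments scaled to transcript length and to the mapped reads of the library. They can be compared between genes as far as the transcript lengths used are right. There was 1 library per condition, so no replicate error, test or p-value can be given, and a difference between the libraries cannot be told apart from a difference between 2 cultures or from an effect of siRNA delivery. Counting error could be estimated, because the lowest FPKM values moved in steps of single reads. Among 757 genes with a mean under 0.1 FPKM, 100 had the log2 ratio of 0.13 that an equal number of reads in each library, such as 1, gives. Other whole-read ratios, with annotated transcript lengths, put the depth near 25600000 reads in the untransfected library (quartiles over genes 18600000 to 26900000) and 23400000 in the anti-APC library. The 95% intervals given here are exact intervals from the resulting read numbers and cover counting error only. *APC* itself had 9.15 FPKM in the untransfected and 3.43 FPKM in the anti-APC library, so that 0.375 of its level remained. *CTNNB1*, which encodes β-catenin, had 177 and 178 FPKM. Of 10 colon epithelium markers, 6 had a mean of at least 1 FPKM, with *VIL1*, *CDX1*, *LGALS4* and *CDH17* under 0.1 FPKM, and the summed level was 1650 FPKM in the untransfected and 1294 FPKM in the anti-APC library. Of 11 markers of fibroblasts, endothelium and leukocytes, 8 were under 0.1 FPKM, and their summed level was 13.2 FPKM in the untransfected and 10.4 FPKM in the anti-APC library. Of the 3 measurable ones, *CD68* had 8.91 FPKM untransfected and 5.01 FPKM with anti-APC siRNA, *VIM* 1.35 and 2.17 FPKM, and *COL1A1* 2.85 and 3.08 FPKM. The part of these levels in the differences of the members was not tested. In bulk RNA, fewer cells with a transcript and less of it per cell cannot be told apart.

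*EPHB2* and *EPHB3*, the receptors of the crypt base, were the members with lower levels in the anti-APC library among those with enough reads to judge, while *EPHB4*, *EPHB6* and *EFNB1* differed by less than their counting error. *EFNB2* was slightly higher. With a gene taken as measurable when its mean was at least 1 FPKM, 6 of the 8 members remained, and 2 of these were at least 1.5-fold lower in the anti-APC library. Of all 11874 measurable genes, 6.52% were at least 1.5-fold lower. None of the members was at least 1.5-fold higher, against 2.51% of all measurable genes. Since the members were selected on these same libraries, nothing is read from the counts. *EPHB3*, with a mean of 1.04 FPKM, passed this filter only through its level in the untransfected library and stood just inside it, while the next member below, *EFNB3*, had a mean of 0.0803 FPKM.

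**Figure D1:**
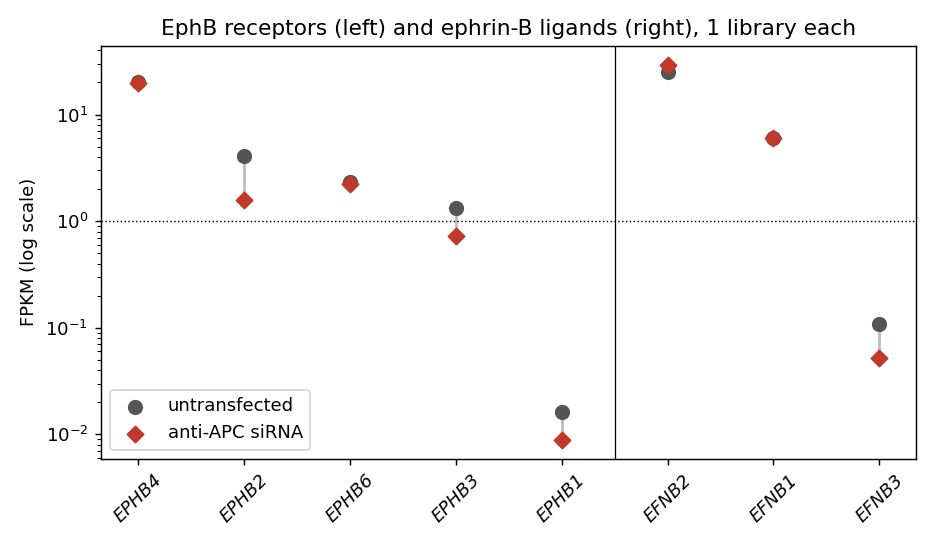
FPKM (log axis) of the 5 EphB receptors and 3 ephrin-B ligands in the untransfected library (grey circles) and the anti-APC siRNA library (red diamonds), 1 library each, with a dotted line at 1 FPKM. *EPHB2* stands above *EPHB6* in the untransfected and below it in the anti-APC library, and *EPHB4* and *EFNB2* are the highest receptor and ligand in both libraries.

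*EPHB2*, on chromosome 1 (chr1:23037332-23247993 of GRCh37, plus strand), encodes a receptor that controls cell positioning in the crypt. It had 4.10 FPKM in the untransfected library and 1.59 FPKM in the anti-APC library, corresponding to about 421 and 149 reads. The level was thus 2.57-fold lower, a log2 ratio of -1.36 with a counting interval of -1.65 to -1.09. The table sets *EPHB2* at a shared locus with *MIR4253* and *MIR4684*, which are listed at 0 in both libraries. Genes of low level tended to be lower in the anti-APC library, with a median log2 ratio of -0.22 at a mean of 1 to 2 FPKM and of -0.02 at 16 to 32 FPKM. For this reason *EPHB2* was set beside the 2648 genes whose mean was within a factor of 2 of its own. Their median log2 ratio was -0.15, and 13.1% of them were at least 1.5-fold lower. In this set, 23 genes, *EPHB2* included (0.869%), had a ratio as low as its own or lower. The members were chosen with these values known. This share, like those given below for other members, therefore describes a position only and is no significance level.

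*EPHB3* (chr3:184279573-184300196, plus strand) encodes the receptor that acts beside EphB2 in the crypt and is known for its part in placing Paneth cells. Its level was 1.34 FPKM in the untransfected and 0.730 FPKM in the anti-APC library, from about 146 and 72 reads. The difference was 1.84-fold, a log2 ratio of -0.88 with a counting interval of -1.32 to -0.47. That interval reaches past the 1.5-fold limit, so a smaller difference is within counting error. Among 1768 genes of similar level the median log2 ratio was -0.24, 21.5% were at least 1.5-fold lower, and 9.84% had a ratio as low as that of *EPHB3* or lower. *EPHB3* was therefore less far from genes of its own level than *EPHB2* was. With the median of each level subtracted, the log2 ratios became -1.21 for *EPHB2* and -0.64 for *EPHB3*. The level of *EPHB2* was 3.05 times that of *EPHB3* in the untransfected and 2.18 times in the anti-APC library.

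*EPHB4* (chr7:100400187-100425145, minus strand) encodes the receptor best known for pairing with ephrin-B2 on venous endothelium. It had 20.1 FPKM in the untransfected and 19.8 FPKM in the anti-APC library, about 2596 and 2343 reads. Its log2 ratio of -0.02 had a counting interval of -0.10 to 0.06, which leaves out a difference of 1.5-fold as far as counting error goes. In the GENCODE 44 annotation it overlaps *SLC12A9*, at 6.80 and 5.98 FPKM, on the opposite strand. By the deposited loci, however, *SLC12A9* begins 25.2 kb beyond *EPHB4*. The strand setting of the reads is not given in the sources used here.

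*EPHB6* (chr7:142552823-142568847, plus strand) encodes a receptor whose kinase domain is catalytically inactive. Its levels were 2.35 FPKM untransfected and 2.24 FPKM with anti-APC siRNA, from about 265 and 231 reads. The log2 ratio of -0.07 had an interval of -0.33 to 0.19, so this gene, the receptor nearest to *EPHB2* in level, differed by less than counting error. Of 2421 genes near its level, 15.4% were at least 1.5-fold lower.

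*EPHB1* (chr3:134514102-134979309, plus strand), a receptor known from the nervous system, was hardly detected. Its 0.0162 FPKM in the untransfected and 0.00887 FPKM in the anti-APC library matched 2 reads against 1. The ratio of 0.548 had an interval of 0.0093 to 10.5, and a difference in either direction was not detectable at this depth.

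Among the ligands, *EFNB2* (chr13:107142093-107188010, minus strand), the partner of EphB4, was the highest member of the family. It had 25.0 FPKM in the untransfected and 29.4 FPKM in the anti-APC library, about 2457 and 2633 reads. The ratio of 1.17, a log2 ratio of 0.23, had a counting interval of 1.11 to 1.24 and lay below the 1.5-fold limit. Of 4084 genes at its level, 89.9% had a ratio as low or lower, with a median log2 ratio of -0.03.

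*EFNB1* (chrX:68048864-68062003, plus strand) encodes a ligand for EphB2 and EphB3 whose loss in the germline causes craniofrontonasal syndrome. Its levels of 6.03 and 6.04 FPKM, from about 510 and 466 reads, gave a log2 ratio of 0.00 with an interval of -0.18 to 0.19. *EFNB3* (chr17:7608520-7614690, plus strand), a ligand known from the midline of the nervous system, had 0.108 FPKM in the untransfected and 0.0526 FPKM in the anti-APC library, which matched 9 reads against 4. Its log2 ratio of -1.04 had an interval of -3.19 to 0.80, so no difference was detectable at this depth.

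**Figure D2:**
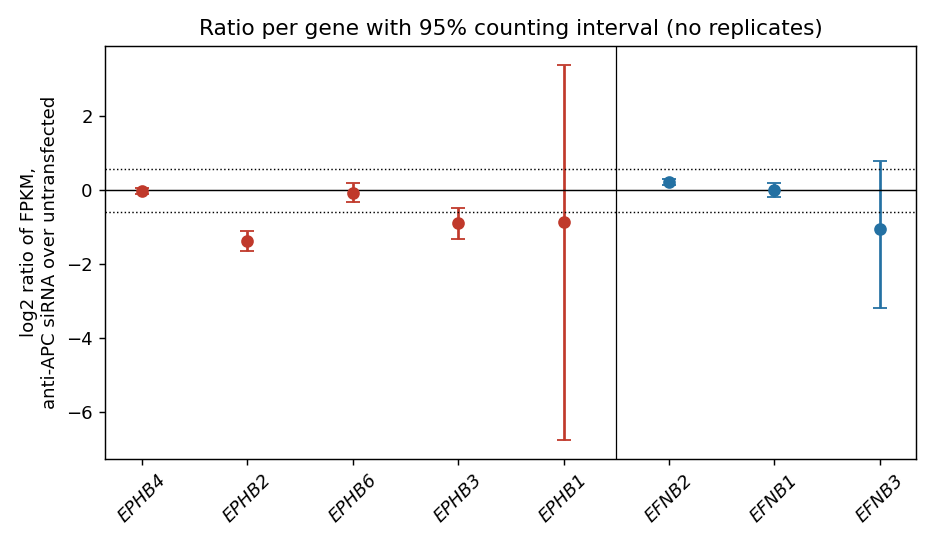
Log2 ratio of FPKM in the anti-APC siRNA library over the untransfected library for each receptor (red) and ligand (blue), with 95% exact counting intervals as bars and dotted lines at 1.5-fold. Only the interval of *EPHB2* lies wholly below the lower line, and the bars of *EPHB1* (2 reads against 1) and *EFNB3* (9 against 4) cross both lines.

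In the order of levels, *EFNB2*, *EPHB4* and *EFNB1* were the top members of both libraries, followed by *EPHB2*, *EPHB6* and *EPHB3* in the untransfected library. In the anti-APC library *EPHB6* stood above *EPHB2*. *EPHB2* was 1.75 times as high as *EPHB6* in the untransfected and 0.711 times as high in the anti-APC library. By counting intervals, *EPHB2* lay at 3.72 to 4.51 FPKM and *EPHB6* at 2.07 to 2.65 FPKM in the untransfected library. In the anti-APC library the intervals were 1.35 to 1.87 FPKM for *EPHB2* and 1.96 to 2.55 FPKM for *EPHB6*. Of the 7 pairs of neighbours in each order, 1 had intervals that overlapped, *EFNB3* and *EPHB1*, in both libraries. These intervals leave out errors of transcript length, which can differ between genes, and differences between cultures. The order therefore holds for counting error only.

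The receptors were compared with the ligands as summed FPKM. The receptor sum was 27.9 FPKM in the untransfected and 24.4 FPKM in the anti-APC library, and the ligand sum was 31.2 and 35.5 FPKM. The receptor sum per ligand sum was 0.894 and 0.688. *EPHB4* made up 72.0% of the receptor sum in the untransfected library and 81.3% in the anti-APC library, *EPHB2* 14.7% and 6.53%, and *EPHB3* 4.82% and 2.99%. *EFNB2* made up 80.3% and 82.8% of the ligand sum. For single pairs of receptor and ligand, *EPHB2* was at 0.680 of the level of *EFNB1* in the untransfected library and at 0.264 in the anti-APC library. *EPHB4* was at 0.801 and 0.675 of the level of *EFNB2*. *EPHB2* and *EPHB3* together had 5.44 FPKM in the untransfected and 2.32 FPKM in the anti-APC library.

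**Figure D3:**
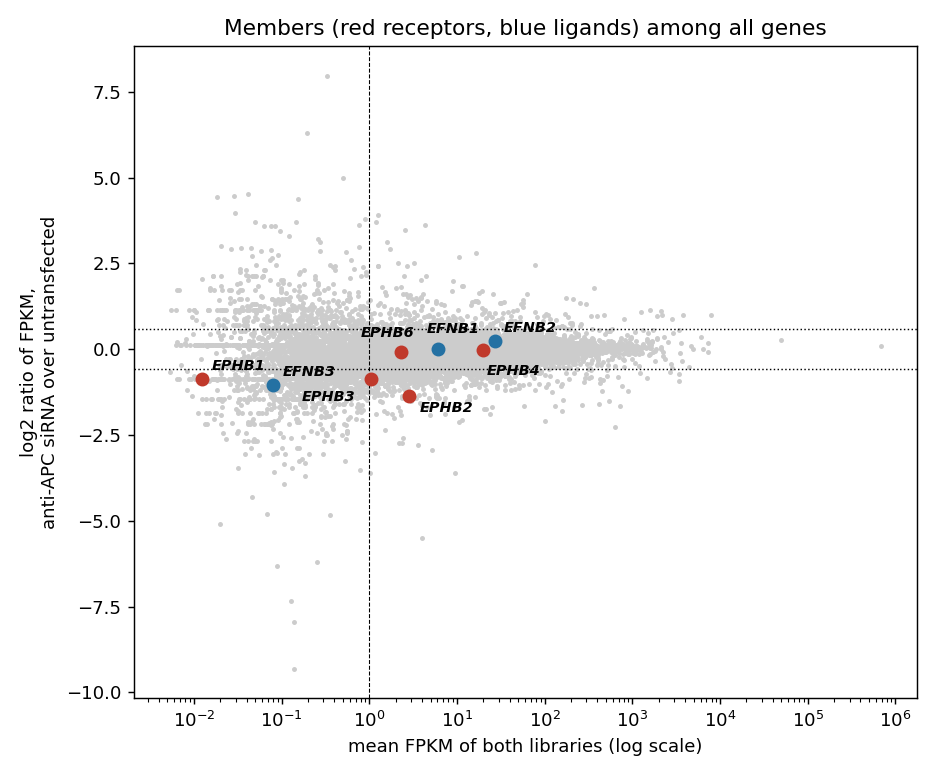
Log2 ratio of FPKM, anti-APC siRNA over untransfected, against the mean FPKM of both libraries (log axis) for all genes measured above 0 in both libraries (grey), with receptors in red and ligands in blue, a dashed line at 1 FPKM and dotted lines at 1.5-fold. *EPHB2* lies at the lower edge of the genes of its level (0.869% as low or lower), *EPHB3* within them (9.84%), and the other 4 members to the right of the dashed line near a log2 ratio of 0. The shares describe positions only, as the members were chosen with these values known.

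Sequences upstream of the genes are shown for the member lowest in ratio, for its crypt partner *EPHB3*, and for *EPHB4* and *EFNB2*, the highest receptor and ligand, which differed little. Each is the 250 bases before a RefSeq start (GRCh38.p14 table, matched exactly to GRCh37), and 7 of the 8 members were in the table. Where a member had several starts, the entry with the highest coordinate was kept. The windows of the whole table were not reduced in this way. The windows are chr1:23037082-23037331 on the plus strand for *EPHB2*, chr3:184279323-184279572 on the plus strand for *EPHB3*, chr7:100425146-100425395 on the minus strand for *EPHB4* and chr13:107188011-107188260 on the minus strand for *EFNB2*. They read 5′ to 3′ with the GC box of SP1 (GGGCGG, or CCGCCC on the other strand) in capitals.
EPHB2: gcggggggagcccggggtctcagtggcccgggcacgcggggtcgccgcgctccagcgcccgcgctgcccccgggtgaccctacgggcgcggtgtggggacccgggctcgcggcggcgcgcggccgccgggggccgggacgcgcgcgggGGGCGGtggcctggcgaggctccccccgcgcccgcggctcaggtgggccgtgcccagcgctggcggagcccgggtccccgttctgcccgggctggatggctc
EPHB3: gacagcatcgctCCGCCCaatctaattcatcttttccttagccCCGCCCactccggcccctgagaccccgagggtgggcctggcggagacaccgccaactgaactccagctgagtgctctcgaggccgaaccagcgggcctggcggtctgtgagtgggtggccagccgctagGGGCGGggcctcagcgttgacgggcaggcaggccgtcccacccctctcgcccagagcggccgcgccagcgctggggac
EPHB4: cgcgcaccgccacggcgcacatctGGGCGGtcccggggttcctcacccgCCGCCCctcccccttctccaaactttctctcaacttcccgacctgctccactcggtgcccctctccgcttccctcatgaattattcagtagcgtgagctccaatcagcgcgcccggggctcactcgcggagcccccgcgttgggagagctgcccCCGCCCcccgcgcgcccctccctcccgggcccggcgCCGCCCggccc
EFNB2: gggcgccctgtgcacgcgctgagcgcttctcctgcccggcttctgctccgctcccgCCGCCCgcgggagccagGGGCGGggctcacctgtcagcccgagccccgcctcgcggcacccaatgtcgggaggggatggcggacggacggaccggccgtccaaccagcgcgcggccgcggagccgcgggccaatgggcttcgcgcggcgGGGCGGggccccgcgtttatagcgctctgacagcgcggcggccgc

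The GC box was found in 7 of the 7 members' windows and in 42.6% of the 35116 windows of the table. The window of *EPHB6* (chr7:142560264-142560513) lies inside the gene span given above, not upstream of it. The TCF/LEF core CTTTGA, read on both strands, was in 0 of 7 members' windows and in 11.2% of all windows. The AP-1 motif TGANTCA was also in 0 of 7, against 6.57%. GC content was 84.8% for *EPHB2*, 70.0% for *EPHB3*, 72.8% for *EPHB4* and 78.4% for *EFNB2*, with a median of 58.0% over the table. It was 60.8% for *EPHB1*, 63.6% for *EFNB1* and 48.0% for *EPHB6*. The shares over the table were not matched for GC content, on which a match to GGGCGG depends. With 7 windows, 0 cannot be told apart from a share of 11.2% or 6.57%. Nothing is therefore read from these motif counts. These letters describe short windows only, and a motif that is missing here may lie elsewhere.

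The other branches of the Eph system and the proteins around it were counted as lists, by genes with a mean of at least 1 FPKM. Of 9 EphA receptors 3 were measurable and 1 was at least 1.5-fold lower, and of 5 ephrin-A ligands 4 were measurable and none was past 1.5-fold. Among all measurable genes, 6.52% were lower and 2.51% higher at that limit. The fifth ephrin-A ligand, *EFNA5*, was below the filter at 0.430 FPKM untransfected and 0.780 FPKM with anti-APC siRNA, a ratio of 1.81 with a counting interval of 1.30 to 2.56. At its level, 9.06% of genes were at least 1.5-fold higher. The receptor *EPHA10*, also below the filter, went the other way, at 1.10 FPKM untransfected and 0.777 FPKM with anti-APC siRNA. Its ratio was 0.708 with a counting interval of 0.541 to 0.912, and 22.6% of genes at its level were at least 1.5-fold lower. The measurable EphA receptor past 1.5-fold was *EPHA1*, at 6.85 FPKM in the untransfected and 2.15 FPKM in the anti-APC library, a log2 ratio of -1.67. *EPHA1* shares its locus with *ZYX*, which encodes the adhesion protein zyxin, at 67.6 and 75.2 FPKM. *EPHA2*, the highest EphA receptor, had 49.2 and 52.3 FPKM. Of the ephrin-A ligands the highest levels were those of *EFNA3*, at 10.2 and 8.46 FPKM, and *EFNA4*, at 7.04 FPKM with and without the siRNA. Median log2 ratios were -0.47 for the measurable EphB receptors, 0.12 for the ligands, -0.11 for the EphA receptors, -0.07 for the ephrin-A ligands and -0.05 for all measurable genes. The value for the EphB receptors rests on 4 genes, among them *EPHB3*. It was -0.0671 with both libraries at least 1 FPKM and -0.19 from summed FPKM.

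The signalling and turnover lists held 56 genes, 48 of them measurable, and 4 were at least 1.5-fold lower and none higher, against 6.52% and 2.51% of all measurable genes. The gene inside the limit that lay nearest to it was *ABL2*, at 7.81 FPKM untransfected and 11.4 FPKM with anti-APC siRNA. Its ratio was 1.46 with a counting interval of 1.39 to 1.54, which reaches past 1.5-fold. Forward signalling, the list that holds *ABL2*, had 26 of 28 genes measurable with a median log2 ratio of -0.08. In this list *PXN*, the focal adhesion adaptor paxillin, had 115 FPKM untransfected and 57.0 FPKM with anti-APC siRNA, but shares its locus with *LOC100506649*. *NGEF*, which encodes an exchange factor that binds EphA4, had 1.33 and 0.780 FPKM and, like *EPHB3*, passed the filter only through the untransfected library. The GTPases *RHOA* and *RAC1*, the highest of this list, had 433 and 465 FPKM and 145 and 128 FPKM. Reverse signalling and PDZ partners had 11 of 13 genes measurable, none past 1.5-fold, and a median log2 ratio of -0.08. Its highest members were *SDCBP*, which encodes the PDZ protein syntenin (60.9 and 65.2 FPKM), and *TJP1*, which encodes ZO-1 (57.6 and 58.0 FPKM).

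For cleavage and turnover, 12 of 16 genes were measurable, with a median log2 ratio of -0.20. *PTPN1*, a phosphatase that acts on tyrosine kinase receptors, had 47.4 FPKM in the untransfected and 23.2 FPKM in the anti-APC library. *CDH1*, E-cadherin, through which EphB receptors are known to sort epithelial cells, had 19.0 and 12.1 FPKM. The highest were the phosphatase *ACP1*, at 82.5 and 83.2 FPKM, and *APH1A*, a γ-secretase subunit, at 58.8 and 54.6 FPKM.

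Of 8 other WNT target genes of the crypt 5 were measurable, with a median log2 ratio of 0.55. At the 1.5-fold limit 2 were higher and 1 was lower, against 2.51% and 6.52% of all measurable genes. *AXIN2*, a negative regulator of the pathway and a standard readout of it, had 4.11 FPKM untransfected and 28.7 FPKM with anti-APC siRNA. *ZNRF3*, which encodes a ligase that removes Frizzled receptors, had 3.89 and 6.84 FPKM. *CD44*, an adhesion receptor for hyaluronan, had 111 and 71.3 FPKM, and *MYC* 178 and 185 FPKM. *SOX9*, a transcription factor of crypt progenitors, had 30.4 FPKM untransfected and 44.5 FPKM with anti-APC siRNA, a log2 ratio of 0.55. *LGR5* and *ASCL2*, markers of the crypt stem cell, were listed at 0 in at least 1 library, and *RNF43* was listed at 0 with a failed estimate.

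**Figure D4:**
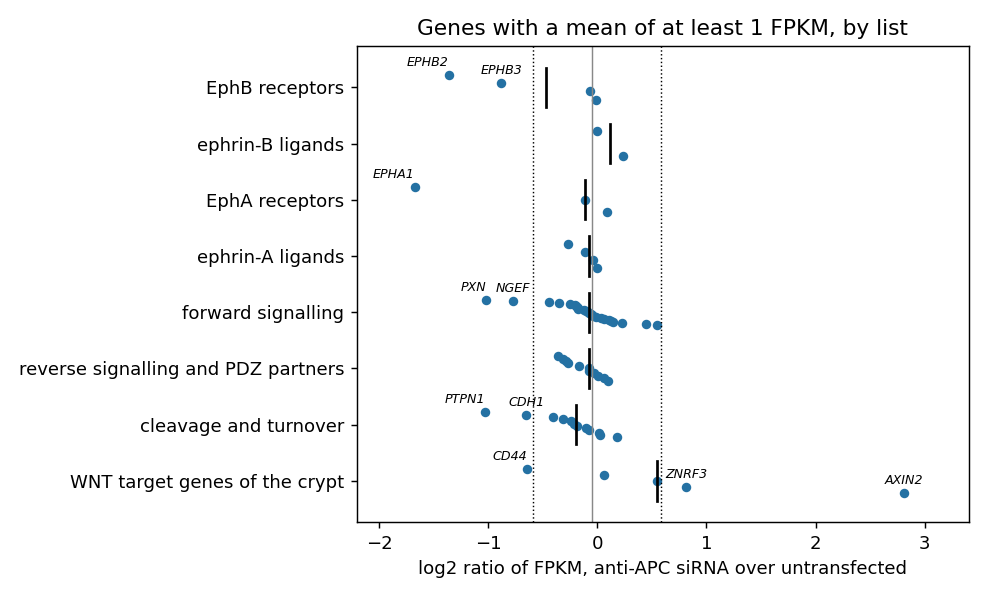
Log2 ratio of FPKM, anti-APC siRNA over untransfected, for the genes of each list with a mean of at least 1 FPKM (points), the median of each list (black bar), the median of all measurable genes (grey line, -0.05) and dotted lines at 1.5-fold. *EPHB2*, *EPHB3* and *EPHA1* stand apart to the left in the Eph families, and *AXIN2* lies far to the right among the WNT target genes of the crypt.

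The genes next to the members along the chromosomes were read for the same difference. The nearest measurable gene on each side of the 8 members made 16 neighbours, of which 1 was at least 1.5-fold higher and 1 lower, against 2.51% and 6.52% of all measurable genes. The higher one was *MTRNR2L6* beside *EPHB6*, with a log2 ratio of 0.98. Beside *EPHB2*, *ZBTB40* (180 kb before) had a log2 ratio of 0.09 and *KDM1A* (104 kb after) of 0.04. Beside *EPHB3*, both neighbours were lower. *CHRD*, 172 kb before it, had 1.39 FPKM untransfected and 0.836 FPKM with anti-APC siRNA, and *MAGEF1*, 128 kb after it, 28.6 and 20.9 FPKM. The log2 ratio of *MAGEF1*, -0.45, was inside the 1.5-fold limit. *STARD8*, beside *EFNB1*, had the same log2 ratio of -0.45, at 2.69 and 1.97 FPKM. *CHRD* passed the filter only through the untransfected library, and 20% of genes with a mean of 1 to 2 FPKM were at least 1.5-fold lower.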

How the data were processed

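RNA-seq values were taken from the deposited table for HCT-116 cells, in which the authors gave FPKM per gene (called RPKM in its name) from Cufflinks and Cuffdiff on hg19 for the untransfected and the anti-APC library. Aligner, versions and strand setting are not given in the sources used here. The authors' own comparison columns (natural log ratio of untransfected over anti-APC, test statistic, p-value, q-value and call) were not used. The depth was estimated from the steps of the FPKM values, with a tolerance of 0.002 on the log2 scale and GENCODE 44 transcript lengths. The estimate was checked on simulated data. The simulation used the same transcript lengths, so it could not show an error from lengths that differ from those behind the FPKM values. The uncertainty of the depth is not part of the counting intervals. Log2 ratios were computed without a pseudocount over 11874 genes with status OK, both values above 0 and a mean of at least 1 FPKM, in Python 3.11.15 with pandas 2.3.3 and scipy 1.17.1. A 1.5-fold limit replaced a test, as there was 1 library per condition. Named genes were the members, *APC*, *CTNNB1* and *AXIN2*, and from each gene list, marker lists aside, those past 1.5-fold and the 2 with the highest mean. *SOX9*, *EFNA5*, *EPHA10*, *ABL2*, *LGR5*, *ASCL2*, *RNF43*, the markers and the neighbouring genes fall outside this rule and were picked with their values in view. Members and lists were chosen with earlier results of these data known. Alternatives to the limit, pseudocount and filter were computed.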

Additional observations from a re-analysis of the deposited data

How the results depend on the processing

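The 2 members at least 1.5-fold lower, *EPHB2* and *EPHB3*, became 1 with a limit of 2-fold, 1 with a pseudocount of 1 FPKM, 4 without a filter on low values, which adds *EPHB1* and *EFNB3*, and 0 with a mean of at least 5 FPKM, a filter that *EPHB2* and *EPHB3* do not pass. With rows alone at their locus the number was 1, since *EPHB2* shares its row's locus with listed microRNA genes. With both libraries at least 1 FPKM, an alternative chosen after seeing the data, it was 1, since *EPHB3* drops out. The median log2 ratio of the receptors, -0.47, was -0.87 without a filter, -0.0166 at a mean of at least 5 FPKM, -0.0671 with rows alone at their locus, -0.0671 with both libraries at least 1 FPKM and -0.19 from summed FPKM. The share of all measurable genes past the limit in either direction, 9.03%, was 25.5% at a limit of 5 to 4, 2.22% at 2-fold, 5.47% with a pseudocount of 1 FPKM, 16.4% without a filter, 14.1% at a mean of at least 0.1 FPKM and 5.68% at 5 FPKM. Of 55 recomputed log2 ratios of members, 53 stayed within the counting interval. A change of filter leaves the ratio of a gene as it is, and the intervals of *EPHB1* and *EFNB3* are wide. Nothing is therefore read from this count. Values near 0 changed sign when a median was subtracted: *EPHB4* was 0.0357 with the median of all measurable genes and 0.0171 with that of its level, and *EPHB6* was 0.11 with that of its level. The other 2 were *EPHB2* at -0.98 and *EPHB3* at -0.44, both with a pseudocount of 1 FPKM. The subtraction of the median of each level was also chosen after seeing the data. No paired analysis was possible because each condition had 1 library. Depth limits *EPHB1* and *EFNB3*, with under 10 reads in each library.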
